A study of Mus musculus with 8 samples.

Results

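Spink5 and Slpi encode secreted inhibitors of serine proteases, and Wfdc2 encodes a secreted relative of Slpi. Their transcripts were followed by mouse in the lungs of mice kept in cigarette smoke (CS) or room air (RA). These 3 of the 33,027 genes in the table were chosen because Spink5 appeared almost only in alveolar type 2 (AT2) cells of smoke mice, so their CS and RA values in epithelial cells are given below as a description, with no test. The study sequenced single cells from the lungs of 8 C57BL/6 mice, 4 CS (C2, C5, D2 and D5) and 4 RA (F1, F3, M1 and M3). All 8 carried Sftpc-CreERT2-mTmG, in which the promoter of the surfactant gene Sftpc drives a tamoxifen-inducible Cre that switches cells from the tdTomato to the eGFP reporter. Both groups received tamoxifen as adults aged 8 to 10 weeks, and littermates were then randomised to smoke or air for 10 months. Each mouse gave 1 library, and each of 4 sequencing lanes held 1 CS and 1 RA mouse. CD45+ leukocytes were separated and remixed at a set ratio before loading, so the share of leukocytes reflects the protocol.

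The libraries held between 2,553 and 6,371 cells each, with a median of 4,254 to 6,473 unique molecular identifiers (UMIs, counted transcripts) per cell. Of the 40,074 cells used, 8,549 were epithelial by the authors' labels. All 6 AT2 markers, all 6 AT1, all 6 ciliated and all 6 goblet markers were highest in the type they mark, as were 4 of 5 basal markers and only 2 of 5 club markers. Cyp2f2 peaked in basal, Aldh1a1 in ciliated and Scgb3a2 in goblet cells. Sex-linked transcripts went against the labels in all 4 CS libraries. C2 and C5, labelled male, held the X-inactivation transcript Xist at 7.83 and 8.34 per 10,000 and the Y-linked Ddx3y at 0.00275 and 0.0169. D2 and D5, labelled female, held Ddx3y at 0.925 and 1.08 and Xist at 0.0421 and 0.0156. The 4 RA libraries matched their labels. Of 40,909 distinct cell barcodes, 197 occurred in more than 1 library, as did those of 3 of the 96 AT2 cells with Spink5.

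Serine proteases released by neutrophils and mast cells, and those held on epithelial surfaces, are kept in check in part by inhibitors made in the epithelium. Spink5 encodes LEKTI, a chain of Kazal-type inhibitor domains that is known from skin, where it blocks kallikreins and where its loss causes Netherton syndrome. Slpi encodes secretory leukocyte protease inhibitor, which blocks neutrophil elastase and cathepsin G in airway fluid. Wfdc2, also called HE4, carries the same kind of WAP domain as Slpi and is made by airway epithelium, although its target protease is less certain. In the GENCODE M21 annotation of GRCm38, Slpi (ENSMUSG00000017002.14) lies on the minus strand of chromosome 2 from 164354070 to 164389095, and Wfdc2 (ENSMUSG00000017723.11) on the plus strand from 164562413 to 164568510. A stretch of 173,317 bases separates them. Spink5 (ENSMUSG00000055561.9) lies on chromosome 18, and its annotated transcript has 32 exons against 4 and 5 in the longest transcripts of Slpi and Wfdc2.

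Spink5 in AT2 cells was concentrated in 2 of the 4 smoke mice, D2 and D5. A Spink5 transcript was present in 40 of 228 AT2 cells of D2, or 17.5% (95% exact binomial interval 12.8 to 23.1%), and in 54 of 165 of D5, or 32.7% (25.6 to 40.5%). In C5 it was present in 1 of 196 cells, and in C2 in 0 of 116, which allows a share of up to 2.59%. Among RA mice, 1 of 335 cells of F1 held it, against 0 of 559 in F3, 0 of 211 in M1 and 0 of 71 in M3, which allow up to 0.537%, 1.42% and 4.23%. C2 thus lay among the RA mice and C5, with its single cell (0.510%), above the highest of them (F1, 0.299%). D2 and D5 held 94 of the 95 Spink5 AT2 cells of the CS group. Where no cell held Spink5, the limit given is 3 divided by the number of cells, which lies below the upper end of the exact interval. Intervals and limits cover counting error only.

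**Figure D1:**
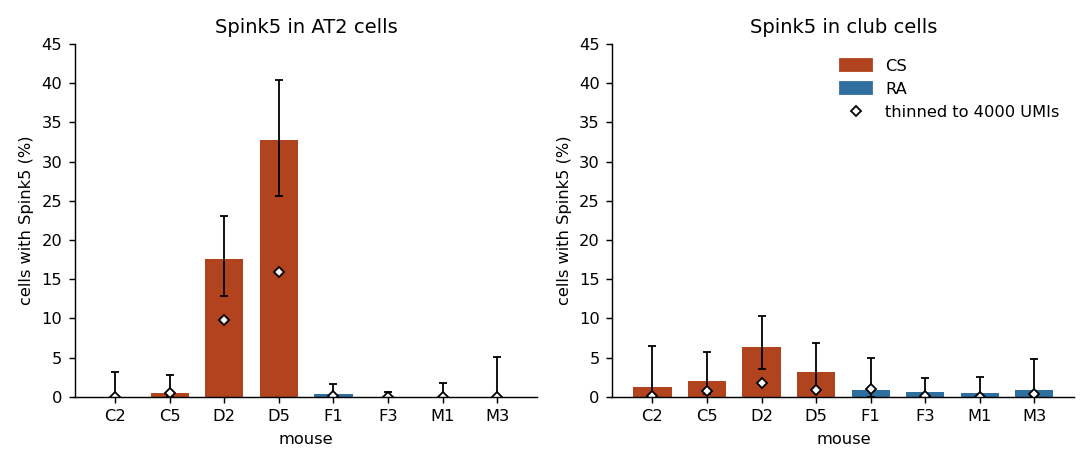
Share of AT2 cells (left) and club cells (right) with a Spink5 transcript in each mouse, in percent. Bars are shares as deposited, and error bars their 95% exact binomial intervals. Diamonds are the share after thinning to 4000 UMIs, with cells under that depth left out. In AT2 cells D2 (17.5%) and D5 (32.7%) stand far above the other 6 mice, which lie at or below 0.510%.

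The mean level in AT2 cells was 0.359 transcripts per 10,000 in D2 and 0.659 in D5. It was 0.0214 in C5, 0 in C2, 0.00151 in F1 and 0 in F3, M1 and M3. Over mice this gave 0.260 ± 0.313 in CS (SD, n = 4) and 0.000378 ± 0.000755 in RA (n = 4), the latter from a single transcript in 1,176 cells. The SD within the CS group exceeded its mean. On the log2(level + 1) scale the CS group was higher by 0.30 (standard error 0.175). This difference was 0.59 with D2 and D5 as the only CS mice, and 0.01 with C2 and C5 as the only CS mice. Both choices were made after the values were seen. Within lanes, the CS mouse was the higher of the pair in 3 of 4, and lane 1 paired C2 at 0 with F1 at 0.00151.

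Most of the Spink5 cells held few transcripts. Of the 94 in D2 and D5, 45 held 1 Spink5 UMI, 22 held 2 and 27 held 3 or more, with the estimated counts rounded to the nearest whole number. A single D5 cell held 51 UMIs, 27.7% of all Spink5 in AT2 cells of that mouse, and without it the level in D5 was 0.518. That cell also held Sftpc at 1538 per 10,000 and no UMI of the club secretoglobin Scgb1a1, of Foxj1 (cilia), of Pecam1 (endothelium) or of Ptprc (leukocytes).

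Depth differed between the mice, with median UMIs per AT2 cell from 9,434 (D2) to 15,384 (D5). D2 therefore had the shallowest AT2 cells of the 8 mice and D5 the deepest. For thinning, cells under 4000 UMIs were left out, which kept 678 of 705 AT2 cells of CS mice and 1,118 of 1,176 of RA mice. After each cell kept was thinned to 4000 UMIs, the Spink5 share was 9.76% in D2 and 16% in D5, against at most 0.481% in the other mice. The median mitochondrial share of UMIs in AT2 cells was 4.57% in C2 and 3.89% in C5, the highest of the 8 mice, against 3.57% in D2, 2.96% in D5 and 2.80% to 3.44% in RA mice. The lineage reporter eGFP was at 60.6 and 59.4 per 10,000 in C2 and C5, 76.2 and 73.9 in D2 and D5, and 63.3 to 82.7 in RA mice. The part of both in the Spink5 values was not tested. The summed level of 5 endothelial markers in AT2 cells (4 or 5 of them detected in each mouse) was 3.72 per 10,000 in D2, 5.07 in D5, 2.44 in C2 and 2.39 in C5, and 1.86 to 6.87 in RA mice. This sum was higher in D2 and D5 than in C2 and C5, and highest in F1. With AT2 cells above 5 per 10,000 in endothelial, immune and fibroblast markers left out, the log2 difference in Spink5 was 0.33. Within the CS group Spink5 followed the sex-linked transcripts, since D2 and D5 held Ddx3y and C2 and C5 held Xist, and sex and the difference among smoke mice cannot be told apart. RA mice M1 and M3, which also held Ddx3y, had no AT2 cell with Spink5 in 211 and 71 cells. The part of the endothelial RNA in the Spink5 values was not tested.

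Elsewhere in the lung Spink5 was rare. In the whole series 149 cells held it, of which 137 were epithelial. Among the other 31,525 cells, 12 held it (0.0381%, at a median of 4,438 UMIs per cell against 11,684 in AT2 cells), spread over 7 of 25 types. In AT1 cells, which were as deep as AT2 cells (median 8,346 to 17,293 UMIs by mouse), 0 of 975 cells held Spink5. Of these, 538 came from CS lungs and 437 from RA lungs. Pooled over all mice this allows up to 0.308%, and the AT1 cells of D2 and D5 alone, being fewer, allow a higher share. No Spink5 was found either in 9,988 capillary cells of the type labelled EC_capillary_B, D2 and D5 included. The airway was different in that club cells of every mouse held some. Spink5 was in 24 of 643 club cells of CS mice and in 5 of 746 of the 4 RA mice, so each RA share rests on very few cells. The club share was 6.31% in D2, 3.19% in D5, 2.01% in C5 and 1.19% in C2, and between 0.452% and 0.901% in the 4 RA mice. All 4 CS mice therefore lay above all 4 RA mice in this share, as was so for the share of cells with 1.89% of the 11,736 genes tested in club cells, among which Spink5 was not, being in under 10% of cells. Club cells were sequenced to medians of 27,543 to 51,739 UMIs. After thinning, the shares ran from 0.0422% to 1.81% in CS and from 0.0238% to 0.954% in RA, and the groups overlapped. The club level overlapped too, at 0.00102 to 0.0574 per 10,000 in CS and 0.000507 to 0.0641 in RA, where 1 cell of F1 with 19 UMIs gave the highest value. In the same club cells the summed level of 6 goblet markers was 4.62 to 6.05 per 10,000 in CS and 15.0 to 63.0 in RA, with 2 of the 6 called, Scgb3a1 (log2 difference -2.40, limma adjusted p = 0.0276) and Muc5b (-1.11, limma adjusted p = 0.0329), both lower in CS, where 0.213% of all genes were called. With a mouse left out, Scgb3a1 passed only without F1 or M1 and Muc5b only without F1. None of the 6 was at 0 in all mice of a group, and their part in the club values was not tested. Goblet cells held Spink5 in 5 of 509 cells, ciliated cells in 6 of 3,519, neuroendocrine (PNEC) cells in 1 of 84 and basal cells in 0 of 192.

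AT2 cells with and without Spink5 could be set side by side in D2 and D5, since the other mice had at most 1 such cell. With 2 mice no test was run, and the genes named here were chosen after their values were seen. They are the 5 highest and 5 lowest by the smaller of both mice's log2 differences, among 8,794 genes. By that measure 5 genes were higher by at least 0.3 in Spink5 cells of both mice, and 22 were lower.

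Surfactant and reporter transcripts were at similar levels in cells with and without Spink5. Sftpc was at 1323 per 10,000 in Spink5 cells and 1255 in the others in D2, and at 1032 and 964 in D5. The lineage reporter eGFP was found in 100% of both kinds in both mice. Median UMIs were 9,925 and 9,308 in D2, and 15,888 and 14,808 in D5. The median mitochondrial share was lower in Spink5 cells, at 3.40% and 3.61% in D2 and at 2.89% and 3.06% in D5. The mean endothelial marker sum was 3.07 in Spink5 cells and 3.86 in the others in D2, where the medians ran the other way (1.23 and 0.654), and 3.47 and 5.85 in D5. The mean sum of 6 ciliated markers was higher in Spink5 cells of D2, at 3.49 and 1.11 (medians 1.42 and 0.865), and near level in D5, at 1.07 and 1.12. Basal markers summed on average to 0.140 and 0.0132 in D2 and to 0.0367 and 0.0321 in D5. Mean club sums were 31.9 and 26.7 in D2 and 68.0 and 70.3 in D5. The club medians were higher in Spink5 cells of both mice, at 0.649 and 0.459 in D2 and 0.407 and 0.0891 in D5. Scgb1a1 was found in 27.5% and 13.3% of cells in D2, and in 14.8% and 13.5% in D5. The part of these markers and of the mitochondrial share in the differences was not tested.

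Nupr1, a stress-induced chromatin regulator, stood at 4.26 per 10,000 in Spink5 cells and 2.51 in the others of D2, and at 4.66 and 2.35 in D5. Pigr, the receptor that carries IgA across epithelia, was at 0.797 and 0.355 in D2 and at 5.73 and 1.64 in D5. Dmkn, a secreted protein known from epidermis, was at 0.849 and 0.476 in D2 and at 1.25 and 0.690 in D5. The other genes of this group were Hspa1b, an inducible heat shock protein, and the predicted gene Gm43085. On the lower side, Peak1, a pseudokinase, was at 4.12 in Spink5 cells and 8.89 in the others in D2, and at 2.86 and 7.4 in D5. S100a6, a calcium-binding protein, was at 0.369 and 1.64 in D2 and at 1.06 and 3.87 in D5. Gm23935, Lars2 (a mitochondrial leucyl-tRNA synthetase) and Igfbp7 (which binds insulin-like growth factors) followed. The share of cells with the transcript was not lower in Spink5 cells for Peak1, S100a6 and Gm23935. Peak1 was found in 87.5% and 79.3% in D2 and in 83.3% and 82.9% in D5. For S100a6 the shares were 22.5% and 18.6% in D2 and 29.6% and 27.0% in D5. The share was lower for Igfbp7 in both mice and for Lars2 in D5. The AT1 marker Ager was at 5.61 and 8.54 in D2 and at 5.14 and 7.70 in D5.

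**Figure D2:**
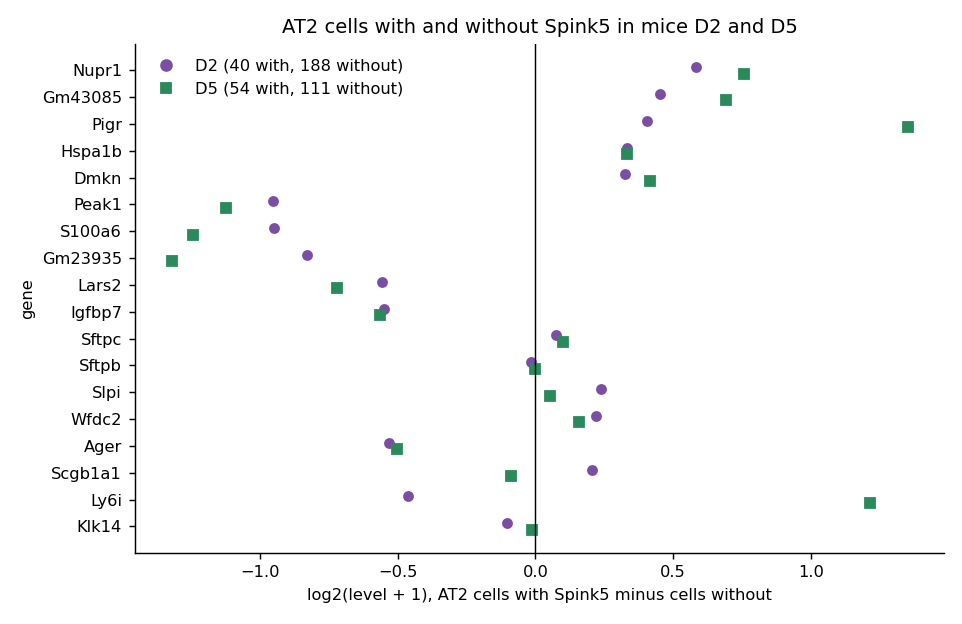
Difference in log2(transcripts per 10,000 + 1) between AT2 cells with and without Spink5, by gene, for mice D2 (circles) and D5 (squares); the first 10 genes are the highest and lowest, and the rest were chosen by name. Nupr1 lies at 0.58 and 0.76 and Peak1 at -0.95 and -1.12, while Sftpc and Sftpb lie within 0.10 of 0 in both mice.

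Slpi and Wfdc2 differed by less than 0.3 on the log2 scale between the kinds of AT2 cell in both mice. Slpi was at 2.98 and 2.38 in D2 and at 3.25 and 3.09 in D5. Wfdc2 was at 47.5 and 40.6 in D2 and at 40.2 and 35.9 in D5. The kallikrein Klk14, among the proteases that LEKTI blocks in skin, was at 0.0544 in Spink5 cells and 0.133 in the others in D2, and at 0.127 and 0.136 in D5. It was found in 7.5% and 11.2% of these cells in D2, and in 14.8% and 16.2% in D5. The defence gene Ly6i was at 0.291 and 0.776 in D2 and at 3.05 and 0.746 in D5. Its shares of cells were 10% and 11.7% in D2 and 37.0% and 18.9% in D5, so both genes rest on few Spink5 cells in D2.

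Slpi in AT2 cells was level between the groups. It stood at 2.64 transcripts per 10,000 in C2, 3.58 in C5, 2.49 in D2 and 3.15 in D5, and at 4.44 in F1, 3.08 in F3, 2.15 in M1 and 2.32 in M3. The highest value was that of an RA mouse, and the groups overlapped throughout. Their means were 2.96 ± 0.499 and 3.0 ± 1.04 (SD, n = 4 each), with a log2 difference of 0.01 (standard error 0.200). Slpi was found in 55.9% to 82.1% of AT2 cells by mouse. Much less was found in the other epithelial types, with 0.134 to 0.302 per 10,000 in AT1 cells, 0.0589 to 0.960 in club, 0.0397 to 0.357 in goblet and 0.0230 to 0.195 in ciliated cells. CS and RA mice overlapped in each of these. In ciliated cells the CS mouse was lower in 4 of 4 lanes, with a log2 difference of -0.08 (standard error 0.0444).

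Mouse F1 held the most Slpi of the 8 mice in 11 of the 17 types that had at least 20 cells in every mouse, and in 8 of 12 non-epithelial ones. Without F1 the log2 difference in AT2 cells was 0.17, and that in ciliated cells was -0.04 against -0.08 with all mice.

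Wfdc2 was in nearly every AT2, club, goblet and ciliated cell. In ciliated cells it stood at 44.9 per 10,000 in C2, 44.5 in C5, 43.5 in D2 and 44.4 in D5, and at 34.9 in F1, 40.6 in F3, 37.0 in M1 and 35.0 in M3. All CS mice lay above all RA mice. The means were 44.3 ± 0.571 and 36.9 ± 2.67 (SD, n = 4 each), a ratio of 1.2 and a log2 difference of 0.26 (standard error 0.0506). That the CS mouse was the higher in 4 of 4 lanes follows from this separation. In the same comparison 9.29% of the 11,147 genes tested in ciliated cells had every CS mouse above every RA mouse. Since the genes were chosen on this contrast, no test of it is given. Club and goblet cells also hold Wfdc2, and of their markers 3 of 5 and 1 of 2 tested were called higher in ciliated cells of CS mice, where 4.66% of all genes were called. These were Aldh1a1 (log2 difference 0.71, limma adjusted p = 0.0140), Cyp2f2 (0.43, limma adjusted p = 0.0423), Cckar (0.16, limma adjusted p = 0.00852) and Agr2 (0.20, limma adjusted p = 0.00261). With lane as a block Cckar and Agr2 passed (limma adjusted p = 0.0333 and 0.0217) and Aldh1a1 and Cyp2f2 did not (0.0557 and 0.102). Without single mice Cyp2f2 did not pass in any case, and Aldh1a1 did not without D5. The club marker sum in ciliated cells was 67.2 to 104 per 10,000 in CS and 45.3 to 80.0 in RA, that of 6 goblet markers 0.640 to 1.48 and 0.321 to 1.47, and none was at 0 in all mice of a group. Aldh1a1 was itself highest in ciliated cells. The part of these markers in the Wfdc2 values was not tested.

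In AT2 cells Wfdc2 overlapped, at 37.3 to 44.1 per 10,000 in CS and 36.6 to 42.9 in RA, with a log2 difference of 0.07 (standard error 0.0734). It overlapped in club cells as well, at 40.3 to 47.7 in CS and 36.7 to 46.2 in RA, and in goblet cells, at 72.8 to 90.5 and 75.6 to 108. AT1 cells held 2.92 to 4.21 in CS and 2.82 to 3.41 in RA. Basal and PNEC cells were too few to compare, and by mouse held 37.0 to 55.7 and 9.40 to 45 per 10,000 from 10 to 37 and 4 to 18 cells.

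**Figure D3:**
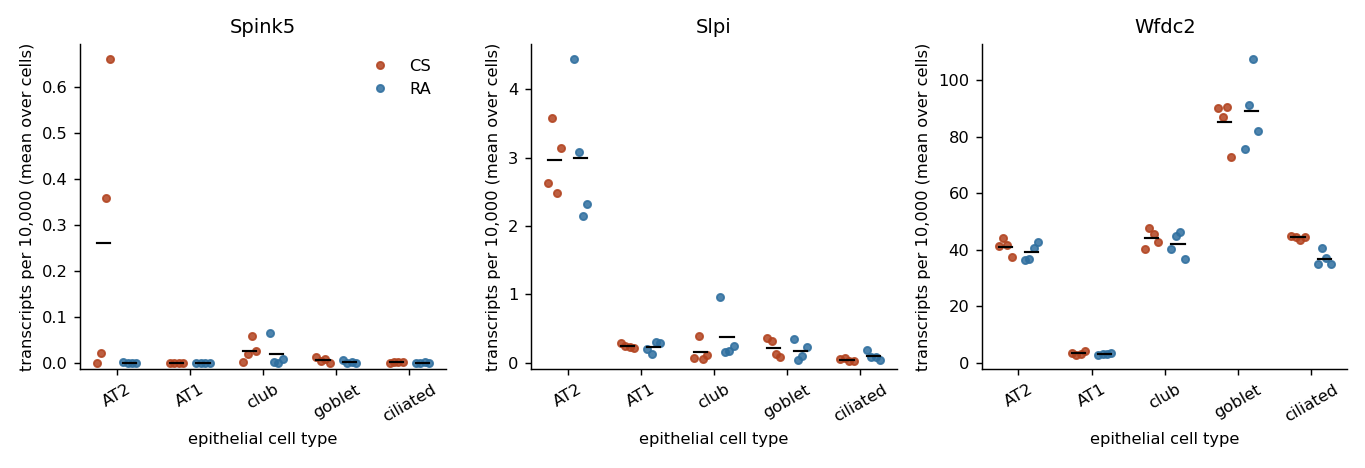
Level of Spink5, Slpi and Wfdc2 in 5 epithelial types, in transcripts per 10,000 averaged per mouse; each point is 1 mouse and each line the mean of 4. Spink5 in AT2 cells rests on D5 (0.659) and D2 (0.359), Slpi overlaps in all 5 types, and Wfdc2 separates the groups in ciliated cells only.

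Across the lung the order of levels differed between Slpi and Wfdc2. Levels were compared between types in the same mice, for 22 types with at least 20 cells in at least 6 mice. Neighbours in the order were tested by an exact two-sided sign-flip permutation test over mice, with p-values adjusted by Benjamini-Hochberg over 40 pairs of both genes. With 8 mice the smallest possible p is 0.00781, and its adjusted value here was 0.104, so no pair passed 0.05. At an unadjusted p under 0.05 there were 6 pairs. The order below is therefore one of means, with unadjusted p-values given as a description.

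Slpi was highest in cells labelled NG, in which all 5 neutrophil markers peaked, at 29.4 ± 2.96 transcripts per 10,000 (SD, n = 8). Mesothelium followed at 11.2 ± 7.01 (n = 7), and NG exceeded it in 7 of 7 mice (exact permutation p = 0.0156, adjusted p = 0.156). Alveolar macrophages (AM) held 4.95 ± 2.0, AT2 cells 2.98 ± 0.758, classical monocytes (cMono) 2.34 ± 1.27 and mast cells 1.91 ± 0.802. Mesothelium was above AM in 5 of 7 mice (exact permutation p = 0.109, adjusted p = 0.398), AM above AT2 in 7 of 8 (exact permutation p = 0.0703, adjusted p = 0.398) and cMono above mast cells in 3 of 7 (exact permutation p = 0.922, adjusted p = 1). The first 4 types were the same in CS and in RA mice taken alone. AT2 cells had the highest mean of the epithelial types and lay above cMono in 7 of 8 mice (exact permutation p = 0.03125, adjusted p = 0.208). T, NK, endothelial, B and ciliated cells were at the low end, between 0.0257 and 0.104 on average.

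Wfdc2 was highest in the epithelium. Goblet cells held 87.1 ± 10.8 per 10,000 (SD, n = 8), more than club cells in 8 of 8 mice, by 44.1 ± 9.50 (exact permutation p = 0.00781, adjusted p = 0.104). Club (43.0 ± 3.70), ciliated (40.6 ± 4.37) and AT2 cells (40.2 ± 2.91) followed, club above ciliated in 6 of 8 mice and ciliated above AT2 in 5 of 8 (exact permutation p = 0.156 and p = 0.812, adjusted p = 0.521 and p = 1). AT1 cells, at 3.24 ± 0.449, were below AT2 cells in 8 of 8 mice, by 36.9 ± 3.03 (exact permutation p = 0.00781, adjusted p = 0.104). In the remaining types the mean was 0.194 to 1.08 per 10,000. There, Wfdc2 was found in 8.34% to 18.8% of the cells of a type, at unequal depth. Thinned to 4000 UMIs, the mean share over CS and RA mice was 1.98% and 3.62% in EC_capillary_A, and 2.31% and 3.07% in EC_capillary_B. It was 2.99% and 2.15% in B cells and 7.38% and 8.01% in mesothelium. In NG it was 7.93% and 13.6%, from 34 and 87 cells of that depth. The part of free RNA in these shares was not tested. Slpi in the same types ranged from 0.781% to 90.9% of cells.

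**Figure D4:**
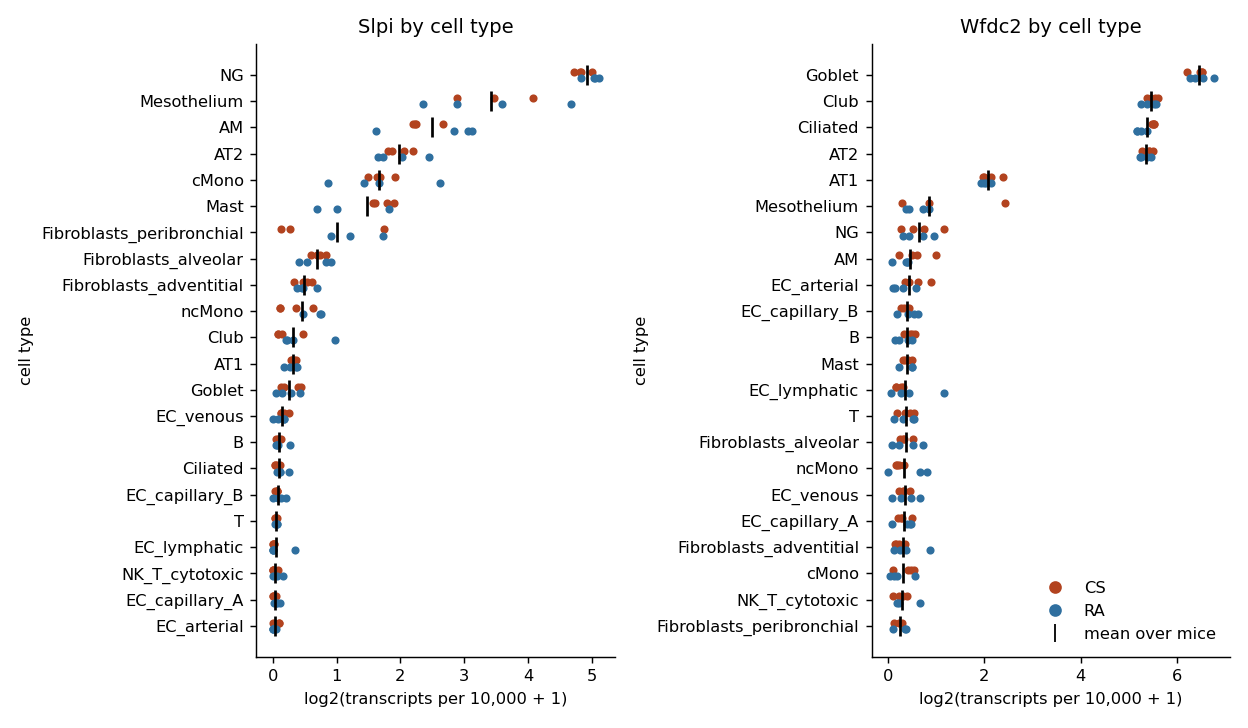
Level of Slpi (left) and Wfdc2 (right) in 22 cell types, on the log2(transcripts per 10,000 + 1) scale; each point is 1 mouse with at least 20 cells of the type, and the tick is the mean over mice. Slpi is highest in NG (29.4 per 10,000) and Wfdc2 in goblet cells (87.1), and in Wfdc2 goblet, club, ciliated and AT2 cells lie above all other types shown, AT1 included.

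Outside the epithelium, smoke and air could be tested for both genes, since the choice of genes did not rest on those cells. Slpi passed the filter of 10% of cells in 9 types and Wfdc2 in 16, and with limma none of the 25 tests had an adjusted p under 0.05 (smallest 0.277), while 3 had an unadjusted p under 0.05. F1 had under 20 non-classical monocytes (ncMono) and mast cells, so those fits hold 4 CS and 3 RA mice. In ncMono Slpi was lower in CS by a log2 difference of -0.36 (standard error 0.131, limma adjusted p = 0.705), where 0 of 6,460 genes were called and 6.53% had an unadjusted p under 0.05. With the ncMono of F1 counted in, the means were 0.246 ± 0.221 in CS and 0.437 ± 0.320 in RA (SD, n = 4 each), and the groups overlapped. In mast cells Slpi was higher by 0.54 (standard error 0.216, limma adjusted p = 0.572), against 7.89% of genes. With the 6 mast cells of F1 (3.0 per 10,000) counted in, the means were 2.30 ± 0.356 in CS and 1.79 ± 1.16 in RA (SD, n = 4 each), a ratio of 1.28, with CS higher in 2 of 4 lanes. Wfdc2 in arterial endothelium was higher by 0.29 (standard error 0.118, limma adjusted p = 0.277), against 14.6% of genes. Over all genes, 10.8% were called in EC_capillary_B, 3.08% and 1.55% in adventitial and alveolar fibroblasts, 2.04% in EC_capillary_A, 0.661% in arterial and 0.128% in venous endothelium, 0.549% in AM and 0.307% in mesothelium, and 0% in the remaining types. With lane as a block the number called fell from 725 to 0 in EC_capillary_B, from 293 to 16 in adventitial and from 132 to 32 in alveolar fibroblasts, and without D5 it was 0 in EC_capillary_B. In NG, where Slpi was highest, it stood at 25.4 to 31.0 per 10,000 in CS and 27.3 to 33.5 in RA, with a log2 difference of -0.16 (standard error 0.132, limma adjusted p = 0.659).

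The genes most like each member over 186 combinations of mouse and cell type, among 10,949 or 10,950 genes, were named by Pearson's r of log2(level + 1). These points share mice and libraries, so r is a description. Wfdc2 was closest to Cbr2 (r = 0.97), Elf3 (0.96), Esrp1 (0.95), Myo5c (0.94) and Dcxr (0.93), of which Elf3 and Esrp1 encode an epithelial transcription factor and an epithelial splicing regulator. Slpi was closest to Glrx (0.79), Ccr1 (0.76), Cd33 (0.76), Arg2 (0.76) and Clec4d (0.75), and Ccr1, Cd33 and Clec4d encode surface receptors of myeloid cells. For Spink5 the values were lower, with Gm43085 (0.52), Pla2g1b (0.51), 9330182L06Rik (0.50), Gm20629 (0.49) and S100g (0.49). Of these, S100g, a calcium-binding protein, was at 18.7 per 10,000 in AT2 cells of C2 and 18.4 in C5, which had almost no Spink5, against 19.1 in D2 and 17.5 in D5.

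Among the other inhibitors, Spint2, which blocks the membrane proteases matriptase and prostasin, had the highest level of its list (WAP, Kazal and Kunitz inhibitors, 37 genes, 34 of them measured) in AT2 cells. It stood at 4.70 ± 0.375 per 10,000 in CS and 4.84 ± 0.488 in RA (SD, n = 4 each). Its relative Spint1 followed, at 0.690 ± 0.173 and 0.595 ± 0.101, and then Reck, an inhibitor of matrix metalloproteases, at 0.122 ± 0.0138 and 0.139 ± 0.0462. Of the serpins, Serpinb6a, Serpinb6b and Serpine2 were highest, at 1.41, 1.18 and 0.989 on average over 8 mice. Of the 50 serine proteases listed, 45 of them measured, prostasin (Prss8), Tmprss4 and matriptase (St14) were highest, at 0.862, 0.763 and 0.696. In club cells the leading genes were Spint2, Spint1 and Wfdc3, the serpins Serpine2, Serpinb6a and Serpinf1, and the proteases Tmprss2, Prss8 and St14, with Spint2 at 3.74 ± 0.112 in CS and 3.87 ± 0.343 in RA.

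All gene lists used here and below were chosen with earlier results of these data known, so counts of passing list genes are a description. None of these lists held a gene that passed in AT2 cells. With limma 0 of 9,138 genes passed an adjusted p of 0.05 there, 670 (7.33%) having an unadjusted p under 0.05. Tested members numbered 3 of the 37 inhibitors, 8 of 42 serpins, 13 of 50 serine proteases and 2 of 4 protease-activated receptors, with median log2 differences of -0.02, 0.04, 0.02 and -0.01 against 0.00329 over all genes. Of the listed names, 34, 38, 45 and 4 were among the genes measured. Klk14 had the smallest p, at 0.119 to 0.138 per 10,000 in CS and 0.0489 to 0.0977 in RA, a log2 difference of 0.08 (standard error 0.0216, limma adjusted p = 0.504). All CS mice lay above all RA mice, as for 2.44% of genes. Serpinb9, an inhibitor of granzyme B, was at 0.825 to 0.878 in CS and 0.404 to 0.715 in RA, a log2 difference of 0.22 (standard error 0.0617, limma adjusted p = 0.525).

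In AT1 cells 2.38% of 8,950 genes were called and none of the 15 tested genes of the 4 lists. Spint1 was at 1.21 to 1.97 per 10,000 in CS and 0.985 to 1.17 in RA, a log2 difference of 0.26 (standard error 0.0878, limma adjusted p = 0.127). Of all genes tested in AT1 cells, 5.74% had every CS mouse above every RA mouse. The receptor F2rl1, also known as PAR2, was at 0.691 ± 0.0632 in CS and 0.546 ± 0.0796 in RA (limma adjusted p = 0.264), and Serpinb6b at 3.27 ± 0.374 and 4.30 ± 0.333 (limma adjusted p = 0.0997). In club cells 0.213% of 11,736 genes were called and none of the 26 tested in the lists. Spint1 stood at 0.702 to 0.805 in CS and 0.573 to 0.623 in RA (limma adjusted p = 0.316). Serpinf1 was at 0.187 ± 0.0185 and 0.281 ± 0.0473 (limma adjusted p = 0.312), and hepsin (Hpn) at 0.277 ± 0.0315 and 0.208 ± 0.0138 (limma adjusted p = 0.425). The groups did not overlap for these 3 genes, while in club cells 4.46% of all genes had every CS mouse above every RA mouse and 2.04% every CS mouse below.

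In ciliated cells, where 4.66% of genes were called, 1 of the 19 tested list genes passed. Serpine2, which blocks thrombin and urokinase, fell in CS from 3.02 ± 0.246 to 2.27 ± 0.206 per 10,000 (SD, n = 4 each), a log2 difference of -0.30 (standard error 0.0662, limma adjusted p = 0.0324). With sequencing lane as a block its limma adjusted p was 0.0797, and it did not pass without C2, D2, D5, M1 or M3. Wfdc3 was at 0.223 ± 0.0233 in CS and 0.329 ± 0.0961 in RA (limma adjusted p = 0.134). Other list genes were higher in CS at an unadjusted p under 0.05, as were 14.2% of all genes. These were Serping1 (log2 difference 0.09, limma adjusted p = 0.0573), Tmprss4 (0.12 and 0.0849) and Spint1 (0.10 and 0.148). They lie outside the rule for named genes, were added after their values were seen, and were not followed under other settings. In goblet cells 0.176% of 11,946 genes were called and none of the 32 list genes tested. The protease Tmprss4 stood at 0.178 to 0.271 in CS and 0.0227 to 0.102 in RA, a log2 difference of 0.18 (standard error 0.0419, limma adjusted p = 0.123). Of all genes tested in goblet cells, 7.22% had every CS mouse above every RA mouse.

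**Figure D5:**
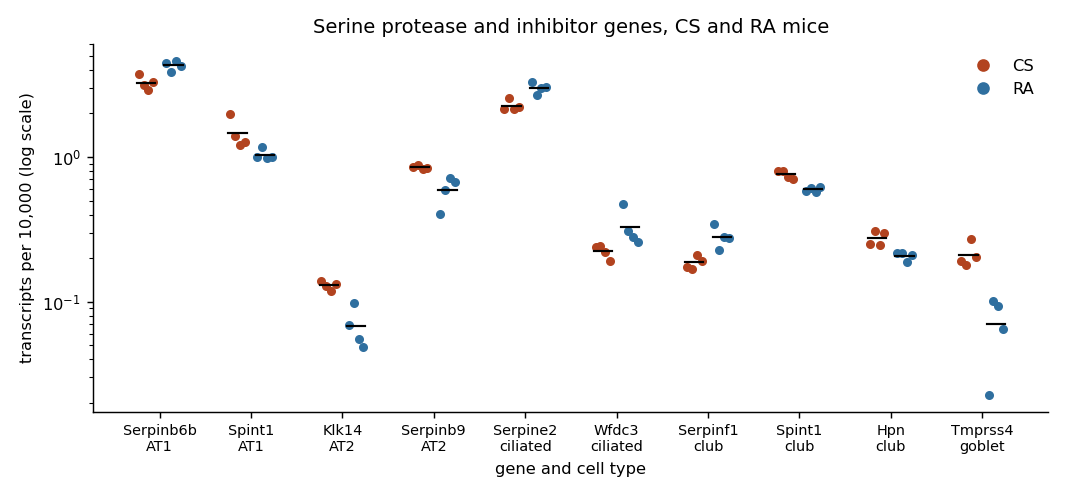
Levels of the serine protease and inhibitor genes named by rule in each epithelial type, in transcripts per 10,000 on a log scale. The rule took up to 3 higher and 3 lower list genes of smallest p, with transitional and defence genes counted in. Some protease and inhibitor genes with an unadjusted p under 0.05 are therefore not shown. Points are mice and lines the means of 4 CS or 4 RA mice. Serpine2 in ciliated cells (3.02 in RA, 2.27 in CS) is the one gene shown that passed an adjusted p of 0.05.

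A list of 12 genes of transitional AT2 cells and one of 16 epithelial defence genes were read beside the members. In AT2 cells 11 and 13 of them were tested and none passed, with median log2 differences of -0.03 and 0.11. Ly6i had the smallest p of the defence genes there, at 0.124 in C2, 0.423 in C5, 0.691 in D2 and 1.5 in D5, and 0.0791 to 0.414 in RA (limma adjusted p = 0.654). In AT1 cells the integrin subunit Itgb6 rose from 3.16 ± 0.838 to 5.19 ± 0.914 (limma adjusted p = 0.0437). In ciliated cells Sfn fell from 1.93 ± 0.496 to 0.803 ± 0.289 (limma adjusted p = 0.0173; 0.0557 with lane as a block). Of the club and goblet markers above, 3 of 5 and 1 of 2 tested were called higher in these ciliated cells. Aldh1a1 and Cyp2f2 among them did not pass with lane as a block. In the same cells Itgb6 rose by 0.17 on the log2 scale (limma adjusted p = 0.0250). The chemokine Cxcl17 rose by 0.41 (limma adjusted p = 0.0191, and 0.0691 with lane as a block). The acute phase gene Orm1 rose by 0.11 (limma adjusted p = 0.0188, and 0.0557 with lane as a block). Cldn4, the other called gene of the transitional list, rose by 0.19 in ciliated cells (limma adjusted p = 0.0389; 0.0280 with lane as a block). It lies outside the rule for named genes and was added after its value was seen. In goblet cells Retnla rose from 1.04 to 5.76 per 10,000 over RA mice to 12.2 to 49.2 over CS mice (limma adjusted p = 0.0391). Every CS mouse lay above every RA mouse there, as for 7.22% of all genes. Bpifa1, an airway lipid-binding secreted protein, was at 193 ± 60.4 in CS and 316 ± 78.2 in RA goblet cells (limma adjusted p = 0.131), and the acute phase gene Saa3 at 0.250 ± 0.0969 and 0.0698 ± 0.0413 (limma adjusted p = 0.126). Sfn was at 0.587 ± 0.136 and 1.01 ± 0.273 in goblet cells (limma adjusted p = 0.227) and at 0.154 ± 0.0376 and 0.424 ± 0.191 in club cells (limma adjusted p = 0.217), where Cldn4 was at 0.139 ± 0.0185 and 0.237 ± 0.0906 (limma adjusted p = 0.414). Without single mice Itgb6 in AT1 cells (all but C5 and M3) and Retnla (all but F1) did not pass, nor in ciliated cells Itgb6 (C2, C5, D5 or M3), Cxcl17 (C2, D2 or D5), Orm1 (M3) and Cldn4 (C2, D5, F1, F3 or M3).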

How the data were processed

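Lungs were digested and sequenced by 10x Genomics 3′ v3 chemistry. The authors aligned reads with STAR 2.7.3a (STARsolo) to GRCm38 with GENCODE M22 and both reporters, removed cells of low quality and free RNA (SoupX), and labelled cell types. The deposited values are estimated counts of UMIs after removal of free RNA: 1.28% are whole within 1e-06, and totals per cell start at 1001. Free RNA left over, or removed in excess, shifts low levels. Cells labelled multiplets (1,025) or cell cycle (7) were left out.

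Counts were scaled to 10,000 per cell and averaged by type within each mouse, so n counts mice. CS and RA were compared by limma 3.58.1 (R 4.3.3, eBayes with trend) on log2(mean + 1), for mice with at least 20 cells and genes found in 10% or more of the cells of CS or RA mice, and Benjamini-Hochberg adjusted p-values were read at 0.05. No count model was used, since counts are not whole. The script was tested on simulated data. Other steps used Python 3.11.15 and SciPy 1.17.1. Total counts per library were 31094700 to 52753500, to 6 digits.

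Members and gene lists were chosen with earlier results of these data known. Named genes were the members, per tested epithelial type up to 3 higher and 3 lower list genes of smallest p under 0.05, per inhibitor, serpin or protease list the 3 of highest level in AT2 and club cells, and per member the 5 most alike. A planned limma comparison of AT2 cells with and without Spink5 needed 3 mice with 10 cells of each kind and was not run, since 2 had them. Alternatives were a pseudocount of 0.1, summed counts, no filter or 25% of cells, lane as a block, no cells of high UMIs, and each mouse left out.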

Additional observations from a re-analysis of the deposited data

Results flagged for a closer look

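In groups of 4 mice, a mouse was singled out where its gap to the next mouse took up most of the group's range (Dixon's criterion at 95%). This was screened for Slpi and Wfdc2 in all types with 20 cells or more in each mouse of the group, and for Spink5 in epithelial types alone. Of 84 groups 11 had such a mouse. Chance gives about 1 in 20 for independent groups, but these share mice, and in 4 of the 11 the other mice were all at 0, which sets the gap to the whole range. The screen is therefore a description. None was for Wfdc2. For Spink5, the 3 rested on 1 cell each: F1 in AT2 cells (0.00151 per 10,000), M1 in ciliated cells (0.000911) and F1 in club cells (0.0641). For Slpi, F1 was high in club cells (0.960 against 0.154 to 0.250 in the other RA mice), in B cells (0.200) and in lymphatic endothelium (0.273, from 2 cells). C5 was high in club cells (0.392), D2 was high in alveolar macrophages (5.36) and low in EC_capillary_B cells (0.0290), and M1 in arterial endothelium (0.0371) and D5 in cytotoxic NK and T cells (0.0550) were high from 1 cell each. In AT2 cells D2 and D5 were not singled out for Spink5, since the CS mice fell into pairs.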

How the results depend on the processing

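The log2 difference of Spink5 in AT2 cells (0.30) was 1.34 with a pseudocount of 0.1, which the construction of the scale sets at low levels. It was 0.015 without D2 and D5 and 0.59 without C2 and C5, alternatives chosen after seeing the data. These pairs are also the CS mice with the most and the least Spink5 in AT2 cells, so the split itself sets these values. With each mouse left out the log2 difference of Spink5 ran from 0.16 to 0.40. Slpi and Wfdc2 in AT2 cells moved by less than 1 SD between mice under every alternative run, although Slpi changed sign, at -0.09 to 0.17 with a mouse left out. The share of AT2 cells with Spink5 was 12.7% over CS mice, as it was with a value of at least 0.5 required, and 6.55% after thinning. Requiring 4000 to 30000 UMIs gave 28 genes that differed between AT2 cells with and without Spink5, against 27, and there Hspa1b fell short of 0.3 in D2 (0.29). Leaving out a mouse could not be run there, since 1 would remain. No test of Slpi or Wfdc2 outside the epithelium passed under any alternative run. Neighbouring types were recomputed with summed counts alone, where 0 of 40 pairs passed, but the smallest p that 8 mice allow did not reach the threshold after adjustment, so this says nothing of stability.

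Counts of all genes called moved more. AT2 stayed at 0 under every alternative. Without a filter on genes, AT1 gave 29 (213 in the main analysis), club 0 (25), goblet 0 (21) and ciliated cells 71 (519), where 24,671 to 30,822 genes were tested. Club gave 15 without cells of high UMIs. Goblet gave 35 with a pseudocount of 0.1, which also moved the median of all genes from 0.03 to 0.14, and 38 with genes in 25% of cells. Lane as a block gave 161 in ciliated cells. With a mouse left out, counts ran from 100 to 205 in AT1, 1 to 21 in club (fewest without C2), 0 to 47 in goblet (0 without M3, 47 without F1) and 111 to 487 in ciliated cells (fewest without D5). They moved by over 1.5 times without any CS mouse in AT1, any mouse but F1 in club, any but F3 in goblet, and C2, D2, D5, F3 or M3 in ciliated cells. Outside the epithelium, lane as a block gave 0 in EC_capillary_B (725), 16 in adventitial (293) and 32 in alveolar fibroblasts (132), 67 in EC_capillary_A (141), 2 in venous (10) and 35 in arterial endothelium (53), 73 in AM (42), 48 in mesothelium (34), and 3 and 17 in lymphatic endothelium and peribronchial fibroblasts (0 each). With a mouse left out these counts ran from 0 to 672 in EC_capillary_B, 23 to 188 in adventitial and 44 to 87 in alveolar fibroblasts, 13 to 410 in EC_capillary_A, 7 to 82 in arterial and 1 to 7 in venous endothelium, 8 to 81 in AM and 3 to 28 in mesothelium. The cause of these moves was not tested. Named list genes kept their direction under every alternative run. Serpine2 in ciliated cells passed in 7 of 15 settings (adjusted p 0.0238 to 0.109), as did Itgb6 in AT1 cells (0.0173 to 0.277), and Retnla in goblet cells in 6 of 15 (0.0167 to 0.341). In ciliated cells Sfn passed in 13 of 15, Orm1 in 11 of 14, Cxcl17 and Itgb6 in 10 of 15, and Cldn4 in 7 of 14 (adjusted p 0.0183 to 0.162). Lane as a replicate block changed the calls of Serpine2, Sfn, Orm1 and Cxcl17 in ciliated cells and, to called, of Bpifa1 in goblet cells, and left the log2 differences of the members as they were, since each lane holds 1 CS and 1 RA mouse. Cell number limits the Spink5 shares in mice with few AT2 cells, and 0 of 71 in M3 allows up to 4.23%.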

Other observations

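Cells labelled multiplets, which entered no comparison, held Spink5 in 1 of 136 cells of D5 and in 0 of 174 of D2, which allows a share of up to 1.72%, and in no multiplet of the other mice.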
